A study of Saccharomyces cerevisiae with 18 samples.

Results

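Less-studied genes that respond to the wall-binding dye Congo Red were followed across strains of budding yeast (Saccharomyces cerevisiae): 10 genes of the 5659 features tested. The genes are CRG1, YPL088W, SRL3, SHH3, YNR066C, PRM5, PRM10, PLN1, DIA1 and FLC2. They were selected on their higher level with Congo Red in the wild type, in these same arrays, and because they lie outside the classical families of cell wall genes. The selection had no numeric threshold. Each gene has 1 probe set, and all 10 passed the filter on low values. PLN1 carries the older name PET10 in the platform annotation (locus YKR046C).

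The study measured total RNA on Affymetrix arrays in 3 strains with and without the dye. The groups were an rlm1 mutant with 30 µg/ml Congo Red and without it, a swi3 mutant with and without the same dose, and the wild type with and without it, all in strain BY4741. There were 3 arrays for each of the 6 groups, and per the series design every array came from its own biological sample. Exposure lasted 4 hours in growing cultures, and untreated cultures grew for the same time. The labels name no construction of the mutants and no number of independent clones.

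Congo Red binds chitin and glucan of the cell wall and disturbs its assembly. Wall damage activates a MAP kinase cascade that ends in the kinase Slt2 and the transcription factor Rlm1, which switches on many wall genes. Swi3 is a subunit of SWI/SNF, a complex that remodels nucleosomes at promoters. The 10 genes have varied roles. PRM5 and PRM10 encode membrane proteins first named for regulation by mating pheromone, and PRM5 is a known Rlm1 target. FLC2 encodes a membrane protein linked to FAD transport into the endoplasmic reticulum, and YNR066C a putative membrane protein of unknown function. CRG1 encodes a methyltransferase that gives resistance to the toxin cantharidin, YPL088W a putative aryl-alcohol dehydrogenase, PLN1 a perilipin of lipid droplets, and SHH3 a relative of the membrane subunit Sdh3 of succinate dehydrogenase. SRL3 encodes a relative of the cell-cycle repressor Whi5. DIA1 was named for invasive growth into agar, and its molecular function is not known.

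RLM1 and SWI3 were low in their own mutants. RLM1 averaged 4.82 ± 0.27 with Congo Red and 4.78 ± 0.12 without it in rlm1, 10.45 ± 0.16 and 9.94 ± 0.03 in swi3, and 10.44 ± 0.08 and 9.26 ± 0.12 in the wild type (log2, SD, n = 3). SWI3 averaged 3.37 ± 0.13 and 3.26 ± 0.11 in swi3, against 9.54 ± 0.10 and 9.55 ± 0.12 in the wild type. The number 1 arrays of rlm1, 1 treated and 1 untreated, stood apart. Their median log2 levels were 9.27 and 9.29, against 9.98 to 10.02 on the other 4 rlm1 arrays, 9.58 to 9.70 in swi3 and 10 to 10.04 in the wild type. Controls probed at both ends, a sign of RNA quality, read higher at the 3' than at the 5' end. The excess was 1.03 to 1.15 on the number 1 arrays of rlm1 and 0.76 to 0.86 on the other rlm1 arrays. It was 0.80 to 1.26 in swi3 and 0.72 to 0.81 in the wild type. Within swi3 it was 1.04, 0.83 and 1.26 on untreated arrays, against 0.80, 0.80 and 0.87 with Congo Red. In swi3 this excess therefore differed along with the dye, and its part in the swi3 results was not tested. The median SD within a group was 0.41 to 0.42 in rlm1, against 0.14 to 0.15 in swi3 and 0.10 to 0.11 in the wild type. Results that rest on the number 1 arrays are given with and without them. Genes of a cells, the mating type of BY4741, averaged between 8.82 and 13.09 in all groups, and 3 of the 4 genes deleted in BY4741 were under 7 in every group. The fourth, HIS3, named after its values were seen, had group means from 10.85 to 11.27, and whether its probes lie in the deleted stretch was not checked. The 2 measured genes of alpha cells had group means from 5.17 to 9.01, and the 6 genes of sporulating cells from 4.92 to 9.37. The sporulation list averaged 6.58 to 6.69 on treated swi3 arrays, against 5.42 to 6.45 on untreated ones (0 of 6 called, 2 in the fit with arrays paired by number), and its part in the results was not tested.

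The samples are bulk cultures, so fewer cells that express a gene and less of its RNA per cell cannot be told apart. A level under 7 is uncertain: 36 of 47 reporter probe sets stayed under 7 on every array. SHH3 and YNR066C lay near or under it, and their differences are uncertain in size. Levels are compared between arrays for 1 gene, not between genes, and as deposited. Over all features the median difference of swi3 from the wild type was -0.37 with Congo Red and -0.41 without dye, which applies to each such comparison. Orders of groups across strains hold for the deposited values, and where a separation named here was lost with each array centred on its median, a check added after seeing the data, this is said beside it.

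The membrane proteins of the pheromone-regulated PRM group are described first. In rlm1, PRM5 had log2 levels of 9.00, 10.29 and 10.25 on the Congo Red arrays, against 8.73, 10.05 and 10 on the untreated arrays. In swi3, PRM5 had 11.83, 12.01 and 12.01 with Congo Red, against 11.16, 11.25 and 11.02 without it. In the wild type, PRM5 had 12.33, 12.50 and 12.42 with the dye, against 10.58, 10.62 and 9.81 without it. Every swi3 array, treated or not, was above every rlm1 array, and the wild type with the dye was above all others, though with arrays centred it overlapped treated swi3 (difference of swi3 from the wild type -0.12, against -0.47 as deposited). The order of the means was wild type with dye, swi3 with dye, untreated swi3, untreated wild type, rlm1 with dye and untreated rlm1. The last 3 groups overlapped with their neighbours in that order. Without dye, PRM5 was above the untreated wild type in swi3 by 0.81 ± 0.36 (log2, SE), a description, since the genes were chosen on wild-type arrays.

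The PRM10 probe set read 7.44, 8.35 and 8.45 (log2) on treated rlm1 arrays, against 7.37, 8.09 and 8.10 on untreated rlm1 arrays. On swi3 arrays PRM10 read 9.38, 9.14 and 9.32 with Congo Red, against 8.74, 8.74 and 8.61 without dye. On wild-type arrays PRM10 read 10.72, 10.75 and 10.45 with Congo Red, against 8.77, 8.59 and 8.10 without dye. Only the treated wild-type and treated swi3 arrays were separated from the rest. The 4 other groups formed a chain of overlapping neighbours, with untreated swi3 at the top and untreated rlm1 at the bottom.

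FLC2 and YNR066C, the other membrane proteins, differed in where swi3 stood. Log2 levels of FLC2 in rlm1 were 10.48, 10.88 and 10.89 with Congo Red, against 10.25, 10.74 and 10.76 without dye. Those of FLC2 in swi3 were 12.14, 12.04 and 12.12 with Congo Red, against 11.54, 11.40 and 11.46 without dye, and those in the wild type were 12.12, 12.04 and 12.05, against 10.71, 10.84 and 10.56 without dye. FLC2 with Congo Red reached the same range in swi3 as in the wild type, with a difference of 0.03 (95% interval -0.30 to 0.36). With arrays centred that difference was 0.37, and treated swi3 was above the treated wild type with no overlap. Without dye it was higher in swi3 than in the wild type by 0.76 ± 0.15 (SE), with no overlap. All 6 rlm1 arrays lay below every swi3 array.

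In rlm1, YNR066C had log2 levels of 7.04, 6.71 and 6.94 on the Congo Red arrays, against 6.75, 6.81 and 6.89 on the untreated arrays. In swi3, YNR066C had 6.19, 6.53 and 6.35 with Congo Red, against 5.12, 5.82 and 5.05 without it. In the wild type, YNR066C had 8.76, 9.36 and 8.58 with the dye, against 6.92, 6.98 and 6.63 without it. The treated wild type was alone at the top. Both rlm1 groups overlapped the untreated wild type, while the swi3 groups were the lowest, the untreated one below the treated one with no overlap. With arrays centred, treated swi3 overlapped both rlm1 groups and the untreated wild type.

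The enzymes and metabolic genes come next. The CRG1 probe set read 6.01, 7.72 and 7.73 (log2) on treated rlm1 arrays, against 5.37, 7.52 and 7.46 on untreated rlm1 arrays. On swi3 arrays CRG1 read 9.21, 9.44 and 9.75 with Congo Red, against 7.32, 7.94 and 7.69 without dye. On wild-type arrays CRG1 read 11.66, 11.76 and 11.77 with Congo Red, against 8.68, 8.78 and 8.18 without dye. Both number 1 arrays of rlm1 were the lowest of all 18. The treated swi3 arrays were above every untreated array of any strain but below the treated wild type, and the untreated swi3 arrays were below the untreated wild type with no overlap, by -0.90 in the mean. With arrays centred that difference was -0.53 and these 2 groups overlapped. Untreated swi3 and both rlm1 groups overlapped as neighbours.

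Log2 levels of YPL088W in rlm1 were 9.46, 10.01 and 9.95 with Congo Red, against 9.37, 9.55 and 9.56 without dye. Those of YPL088W in swi3 were 11.21, 11.30 and 11.18 with Congo Red, against 10.43, 10.48 and 10.12 without dye, and those in the wild type were 12.12, 12.40 and 12.46, against 9.32, 9.51 and 9.35 without dye. YPL088W was separated at every step from treated rlm1 upward: untreated swi3, treated swi3, then the treated wild type. Untreated rlm1 overlapped the untreated wild type below it and treated rlm1 above it. In assembly R64, YPL088W lies next to RLM1 itself. The effect of the rlm1 mutation on this neighbour was not tested. The level of YPL088W in rlm1 differed from the wild type by -2.52 (95% interval -2.86 to -2.18) with Congo Red and by 0.10 (-0.24 to 0.44) without dye.

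In rlm1, PLN1 had log2 levels of 7.62, 8.66 and 8.70 on the Congo Red arrays, against 7.12, 8.52 and 8.50 on the untreated arrays. In swi3, PLN1 had 10.48, 9.81 and 10.82 with Congo Red, against 10.05, 9.59 and 9.82 without it. In the wild type, PLN1 had 11.63, 11.50 and 11.49 with the dye, against 9.44, 9.21 and 8.55 without it. Every untreated swi3 array was above every untreated wild-type and rlm1 array. The treated and untreated swi3 groups overlapped, and PLN1 was the 1 gene of the 10 for which they did.

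The SHH3 probe set read 5.47, 4.99 and 5.06 (log2) on treated rlm1 arrays, against 5.40, 5.27 and 4.96 on untreated rlm1 arrays. On swi3 arrays SHH3 read 4.53, 4.82 and 5.06 with Congo Red, against 4.12, 4.43 and 4.18 without dye. On wild-type arrays SHH3 read 6.81, 7.27 and 7.09 with Congo Red, against 5.30, 4.99 and 5.06 without dye. Only the treated wild type approached or passed 7. Treated swi3, both rlm1 groups and the untreated wild type overlapped as neighbours, and untreated swi3 was below treated swi3 with no overlap.

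SRL3 and DIA1 stand for growth control and invasive growth. Log2 levels of SRL3 in rlm1 were 8.17, 9.41 and 9.46 with Congo Red, against 7.54, 9.25 and 9.28 without dye. Those of SRL3 in swi3 were 10.35, 10.33 and 10.68 with Congo Red, against 8.73, 8.72 and 8.70 without dye, and those in the wild type were 12.04, 12.04 and 12.31, against 9.52, 9.44 and 9.09 without dye. SRL3 was higher on treated swi3 arrays than on any untreated array or any rlm1 array. Untreated swi3, both rlm1 groups and the untreated wild type overlapped as neighbours. Without the number 1 arrays of rlm1, untreated swi3 lay below both rlm1 groups.

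In rlm1, DIA1 had log2 levels of 9.53, 10.15 and 10.17 on the Congo Red arrays, against 7.88, 8.42 and 8.29 on the untreated arrays. In swi3, DIA1 had 8.91, 8.92 and 8.87 with Congo Red, against 8.27, 8.59 and 8.23 without it. In the wild type, DIA1 had 10.30, 10.26 and 10.49 with the dye, against 8.67, 8.38 and 8.80 without it. The treated arrays of DIA1 stood highest in the wild type, lower in rlm1 and lower again in swi3, each without overlap, and all of them were above every untreated array. With arrays centred, treated rlm1 overlapped the treated wild type (difference -0.14, against -0.40 as deposited). The 3 untreated groups overlapped as neighbours. Over the 10 genes, 25 of the 50 pairs of neighbouring groups overlapped. This was not counted over all features, so whether it is many or few is not known. The pairs include the treated wild type, on which the genes were chosen. Some overlaps rest on the number 1 arrays of rlm1. Without those arrays, treated rlm1 lay above untreated rlm1 with no overlap for CRG1, YPL088W, PRM5, PRM10 and PLN1.

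**Figure D1:**
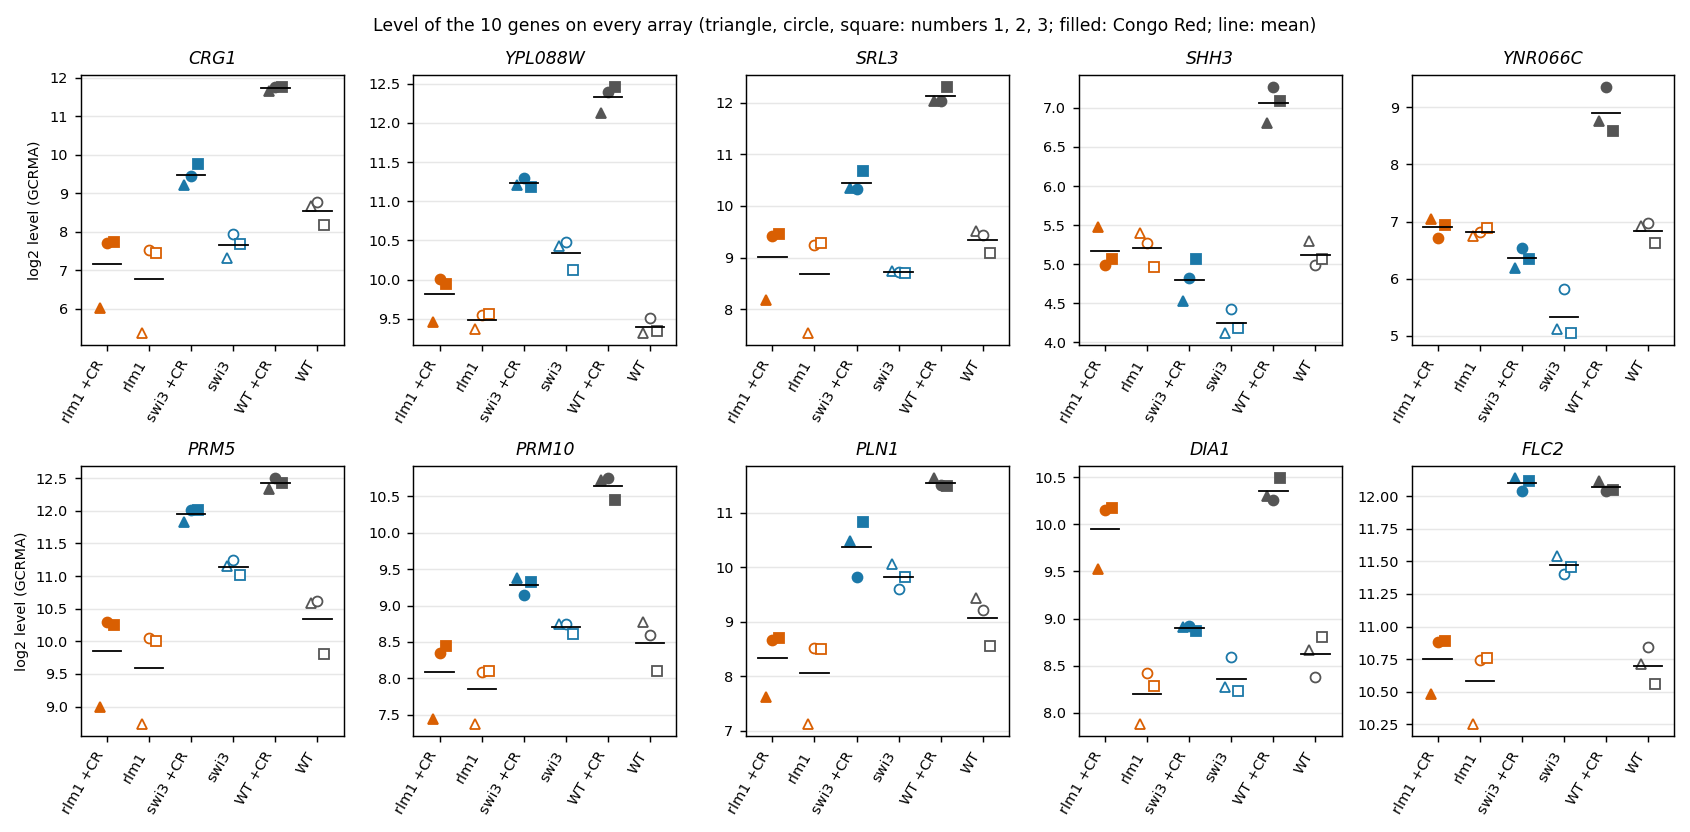
Log2 level (y axis) of each of the 10 genes on each array, by group (x axis; +CR is 30 µg/ml Congo Red for 4 hours). Filled symbols are treated and open symbols untreated arrays; triangles, circles and squares are numbers 1, 2 and 3, and lines are means of 3 arrays. The treated wild type is the highest group for 9 genes, DIA1 is high in treated rlm1, and FLC2 reaches the same range in treated swi3 and the treated wild type.

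The higher level in the treated wild type chose these genes, so its size is given without a test. It was 3.18 ± 0.50 for CRG1, 2.93 ± 0.16 for YPL088W, 2.78 ± 0.39 for SRL3 and 2.47 ± 0.38 for PLN1 (log2, SE, n = 3 per group). The other genes ranged from 2.15 for PRM10 to 1.37 for FLC2, with a median of 2.12 over the 10. By size they ranked between 4 and 49 of 5659 features, and in the wild type 1.57% of all features were called higher.

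Congo Red in rlm1 was then tested, on arrays that the choice of the genes had not used. DIA1 rose by 1.75 ± 0.19 (SE; 3.37-fold) and was the 1 gene of the 10 that rose, in the limma fit of all 18 arrays (Benjamini-Hochberg adjusted p = 0.00039), where 0.0884% of all features rose. Its differences in same-numbered arrays are set out in the plot of paired differences, and its rise ranked 3 of 5659. The other 9 genes differed by -0.04 (SHH3) to 0.37 (CRG1), and none passed the test or had an unadjusted p under 0.05 in this fit. A fit with same-numbered arrays of a strain as a pair, called the pair-blocked fit below, also called DIA1 alone (adjusted p = 1.7e-05), against 1.40% of all features called higher. In that fit the other 9 had adjusted p-values from 0.14 (YPL088W) to 0.95 (SHH3). Its unadjusted p was under 0.05 for YPL088W (0.007), FLC2 (0.021), CRG1 (0.032) and PRM10 (0.033), and for 821 of 5659 features.

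Small differences of 1 sign were common. In rlm1, 8 of 10 genes were higher with Congo Red in all 3 pairs, against 22.7% of all features. For 1 of 10, DIA1, the treated arrays were all above the untreated arrays, against 1.01% of all features. That count rests on the number 1 arrays. Without them, CRG1, YPL088W, SRL3, PRM5, PRM10, PLN1 and FLC2 also had every treated rlm1 array above every untreated one. This separation was not counted over all features, so whether it is many or few is not known. YPL088W had pair differences of 0.09, 0.46 and 0.39 in rlm1 and a mean of 0.31 ± 0.16 (SE). Without the number 1 arrays its difference was 0.42 and that of DIA1 1.80, and DIA1 kept its call (adjusted p = 9.3e-05), against 0.336% of all features called higher. On the 6 rlm1 arrays alone, a fit added after seeing the data, DIA1 did not pass (adjusted p = 0.65). For DIA1 the rlm1 response minus the wild-type response was 0.02 (95% interval -0.55 to 0.59), a description. For the other 9 genes it was between -1.20 (FLC2) and -2.81 (CRG1).

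Congo Red in swi3 gave higher levels for all 10 genes in all 3 pairs, against 23.5% of all features. The treated swi3 arrays were all above the untreated ones for 9 of 10, against 7.67% of all features. The largest differences were those of CRG1 (1.82 ± 0.50, SE), SRL3 (1.74 ± 0.39) and YNR066C (1.03 ± 0.22), and the smallest were 0.56 for SHH3, 0.55 for PLN1 and 0.54 for DIA1. The median over the 10 was 0.72, against 0.03 over all features.

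In the limma fit of 18 arrays, 1 of 10 genes rose in swi3, against 0.159% of all features. That gene was YPL088W (0.89 ± 0.16, SE, adjusted p = 0.036), and its call was lost in each of 6 fits that left out 1 array (adjusted p from 0.084 to 0.37) and with the 12 mutant arrays alone (0.31). This fit shares 1 estimate of the spread, which holds the wide spread of rlm1. Without both number 1 arrays of rlm1, which take no part in the swi3 difference, 7 of 10 genes rose, against 2.24% of all features. The pair-blocked fit called 8 of 10, against 5.92% of all features, with adjusted p-values from 0.00058 (CRG1) to 0.011 (PRM5). SHH3 (adjusted p = 0.058) and PLN1 (adjusted p = 0.091) did not pass it. As a description, the swi3 response minus the wild-type response was between -0.73 for FLC2 and -2.05 for YPL088W.

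**Figure D2:**
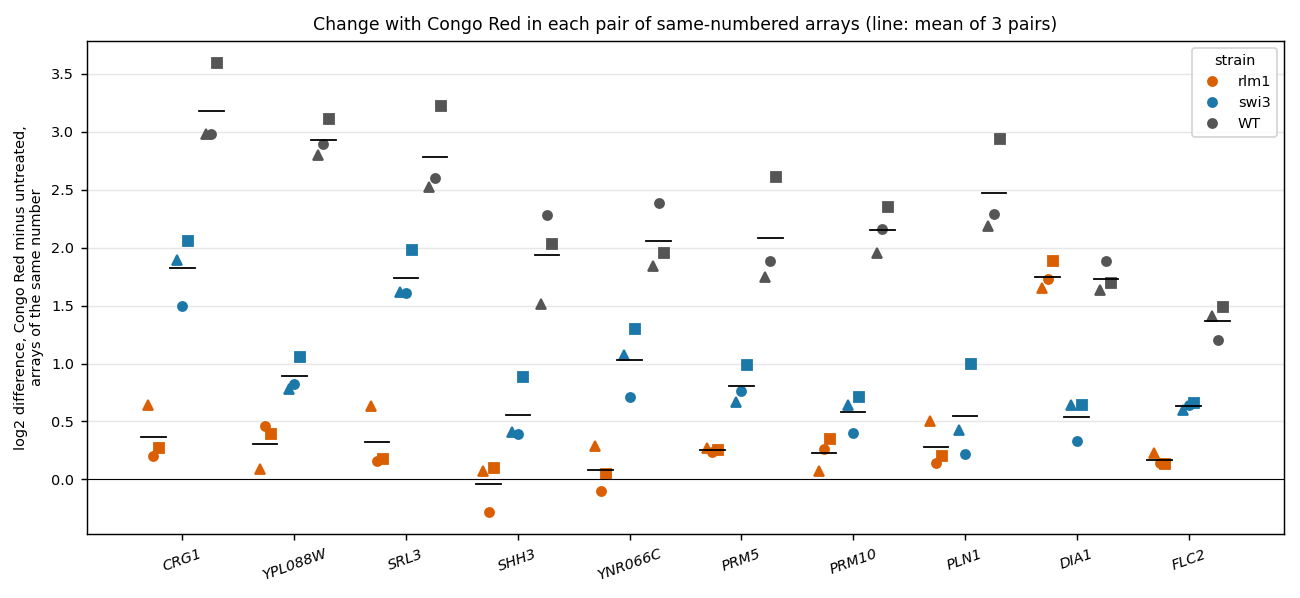
Log2 difference between the Congo Red and the untreated array of the same number (y axis) for each gene (x axis), in rlm1, swi3 and the wild type; triangles, circles and squares are numbers 1, 2 and 3, and lines are means of 3 pairs. All 10 genes are above 0 in all 3 pairs of swi3. In rlm1, DIA1 (mean 1.75) stands far above the other 9 genes, whose means are between -0.04 and 0.37.

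The 2 mutant responses were compared directly, as swi3 minus rlm1. In the fit of 18 arrays 0 of 10 genes passed, against 0.0177% of all features (54 features and 6 of the 10 genes had an unadjusted p under 0.05). The pair-blocked fit called 4 genes higher, against 1.29% of all features. CRG1 responded more in swi3 by 1.45 ± 0.21 (SE, adjusted p = 0.017), SRL3 by 1.41 ± 0.21 (adjusted p = 0.018), YNR066C by 0.95 ± 0.19 (adjusted p = 0.044) and FLC2 by 0.47 ± 0.08 (adjusted p = 0.032). It called 1 gene lower, against 0.495% of all features: the response of DIA1 was smaller in swi3, by -1.22 ± 0.11 (adjusted p = 0.0028). Without both number 1 arrays of rlm1 the pair-blocked calls of CRG1, SRL3 (adjusted p = 0.044 for both) and DIA1 (adjusted p = 0.013) remained, against 0.212% of all features higher and 0.159% lower, while YNR066C had 0.083 and FLC2 0.077. The responses of YPL088W, SHH3, PRM5, PRM10 and PLN1 differed by 0.57, 0.60, 0.55, 0.36 and 0.27 and were not called in either fit.

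**Figure D3:**
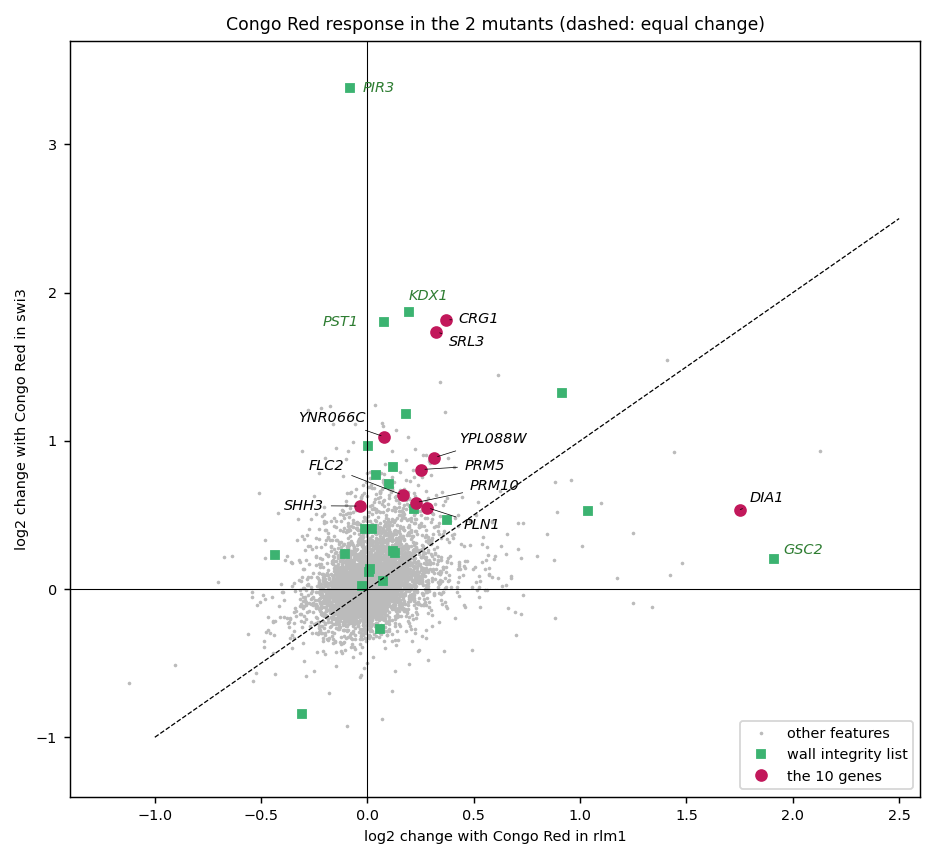
Log2 change with Congo Red in swi3 (y axis) against that in rlm1 (x axis) for all features tested (grey), the wall integrity list (green squares) and the 10 genes (red circles); the dashed line marks equal change. DIA1 lies right of the line (1.75 in rlm1, 0.54 in swi3) near GSC2, and CRG1 and SRL3 lie above it (1.82 and 1.74 in swi3, 0.37 and 0.32 in rlm1).

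The mutants also differed in the levels themselves. Without dye, 5 of 10 genes were higher in swi3 than in rlm1, against 6.03% of all features: PLN1 by 1.77 ± 0.38 (SE, adjusted p = 0.0044), PRM5 by 1.55 ± 0.36 (adjusted p = 0.0069), FLC2 by 0.88 ± 0.15, YPL088W by 0.85 ± 0.16 and PRM10 by 0.84 ± 0.26 (adjusted p = 0.036). PRM10 missed the threshold in 4 of 6 fits that left out 1 array, with adjusted p up to 0.10, and with the 12 mutant arrays alone (0.089). The untreated level of 2 genes was lower in swi3, against 10.1% of all features: YNR066C by -1.49 ± 0.22 (adjusted p = 0.00023) and SHH3 by -0.97 ± 0.19 (adjusted p = 0.0021). Both of these lay under 7, and after quantile normalization neither passed (adjusted p = 0.057 and 0.33). CRG1 (0.87), DIA1 (0.17) and SRL3 (0.03) were not called. CRG1 was at 0.16 (adjusted p = 0.49) without the number 1 arrays of rlm1, and at 0.97 with arrays centred on their medians, where it passed (adjusted p = 0.039) with 16.4% of all features higher. CRG1 also passed after quantile normalization (1.25, adjusted p = 0.0042) and with array weights (0.34, adjusted p = 0.040). Without the number 1 arrays of rlm1, SRL3 was lower in swi3 by -0.55 (adjusted p = 0.0034), but so were 57.0% of all features, and the median of all features was then -0.37, against -0.13 with them.

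With Congo Red, 7 of 10 genes were higher in swi3 than in rlm1, against 6.73% of all features. CRG1 differed by 2.31 ± 0.50 (SE, adjusted p = 0.0048), PRM5 by 2.10 ± 0.36, PLN1 by 2.04 ± 0.38, SRL3 by 1.44 ± 0.39 (adjusted p = 0.019), YPL088W by 1.42 ± 0.16, FLC2 by 1.35 ± 0.15 and PRM10 by 1.20 ± 0.26. DIA1, the 1 gene lower, against 9.44% of all features, differed by -1.05 ± 0.19 (adjusted p = 0.0013). SHH3 (-0.37) and YNR066C (-0.54) were not called. SRL3 lost its call in 2 of 6 fits that left out 1 array (adjusted p up to 0.075) and with the 12 mutant arrays alone (0.074). Without both number 1 arrays of rlm1 the same 8 genes were called, CRG1 then at 1.74 and SRL3 at 1.02, against 9.52% of all features higher and 55.0% lower, with the median of all features at -0.35 against -0.10 with them.

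**Figure D4:**
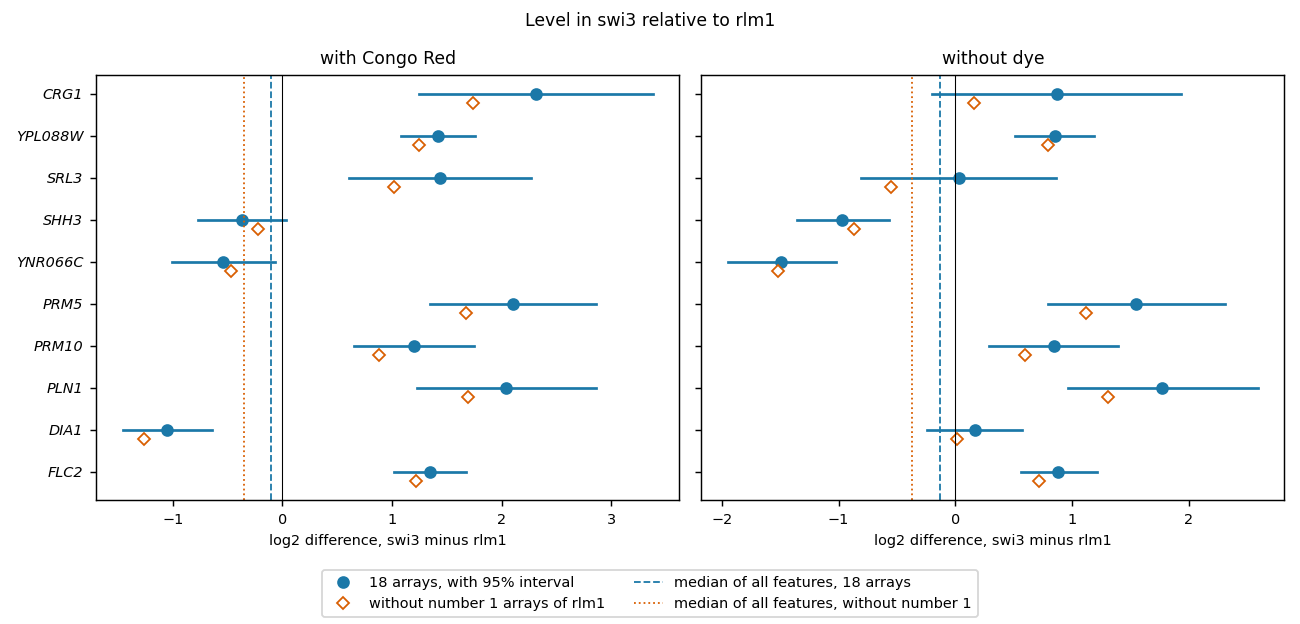
Log2 difference of level, swi3 minus rlm1 (x axis), for each gene (y axis), with Congo Red (left) and without dye (right). Filled points with lines are the fit of 18 arrays with its 95% interval, open diamonds leave out both number 1 arrays of rlm1, and vertical lines are medians of all features. PLN1, PRM5, FLC2, YPL088W and PRM10 are above 0 in both panels, and DIA1 is below 0 with Congo Red (-1.05).

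Relatives of the 10 genes, by sequence family or gene name, were read beside them: 31 of 34 were measured. The list also holds YJL107C, chosen only as the neighbour of PRM10, and it counts among the relatives below. In the wild type 3 of 31 rose with the dye: FLC1, a relative of FLC2 (1.35 ± 0.15, SE, adjusted p = 7.2e-05), YNR065C, a sortilin homologue next to YNR066C (2.39 ± 0.42, adjusted p = 0.0051), and YJL107C, next to PRM10 (1.92 ± 0.35, adjusted p = 0.0069). Over all features 1.57% were called higher there in the fit of 18 arrays. The pair-blocked fit added YNL058C, the relative of PRM5 (1.13), among 12 higher and 4 lower. Its share over all features in the wild type is not given here. WHI5 (-0.11), SDH3 (0.17) and SHH4 (-0.10) were not called in either fit. Among the aryl-alcohol dehydrogenases nor were AAD3, AAD4, AAD6 and AAD14, while AAD10 was higher in the pair-blocked fit (0.35, adjusted p = 0.014). That fit also called higher SDH4 (0.45, adjusted p = 0.0023) and PEP1, a relative of YNR066C (0.21, adjusted p = 0.0090). SDH4 is on the list through SDH3, the relative of SHH3. TMT1, a relative of CRG1 (0.27, adjusted p = 0.025), DIA2 (0.39), SRL1 (0.22) and SRL4 (0.27) were higher in it too. FLC3 differed by -0.38 and was lower in the pair-blocked fit (adjusted p = 0.0060). Of the other pheromone-regulated genes, none was called in the fit of 18 arrays, and the pair-blocked fit called PRM8 higher (0.68) and PRM6 (-0.69), PRM7 (-0.47) and PRM9 (-0.40) lower.

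In the mutants 0 of 31 relatives rose in the fit of 18 arrays in rlm1 (3 at an unadjusted p under 0.05) and 0 of 31 in swi3 (2 at an unadjusted p under 0.05). The pair-blocked fit called FLC1 (0.54, adjusted p = 0.0049) and PRM7 (0.70, adjusted p = 0.013) higher in rlm1, against 1.40% of all features. In swi3 it called 6 higher, against 5.92% of all features, with YJL107C (0.95), YNR065C (0.79), YNL058C (0.78), AAD10 (0.49) and FLC1 (0.31) among them. FLC1 had log2 levels of 10.58, 10.67 and 10.71 in treated swi3, against 10.42, 10.30 and 10.32 in untreated swi3, and 10.82, 10.81 and 10.74 in the untreated wild type. Treated swi3 differed from that group by -0.14 as deposited and by 0.20 with arrays centred, so their order is not settled. YNR065C read 8.75, 8.86 and 8.86 in treated swi3, against 7.62, 8.15 and 8.33 in untreated swi3, and 9.22, 9.03 and 8.90 in the untreated wild type. Here too the sign turned, with treated swi3 at -0.23 from the untreated wild type as deposited and 0.11 with arrays centred. DIA1 lies next to YMR315W-A, named after its values were seen, which differed by -0.21 in rlm1, 0.49 in swi3 and 1.91 in the wild type.

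**Figure D5:**
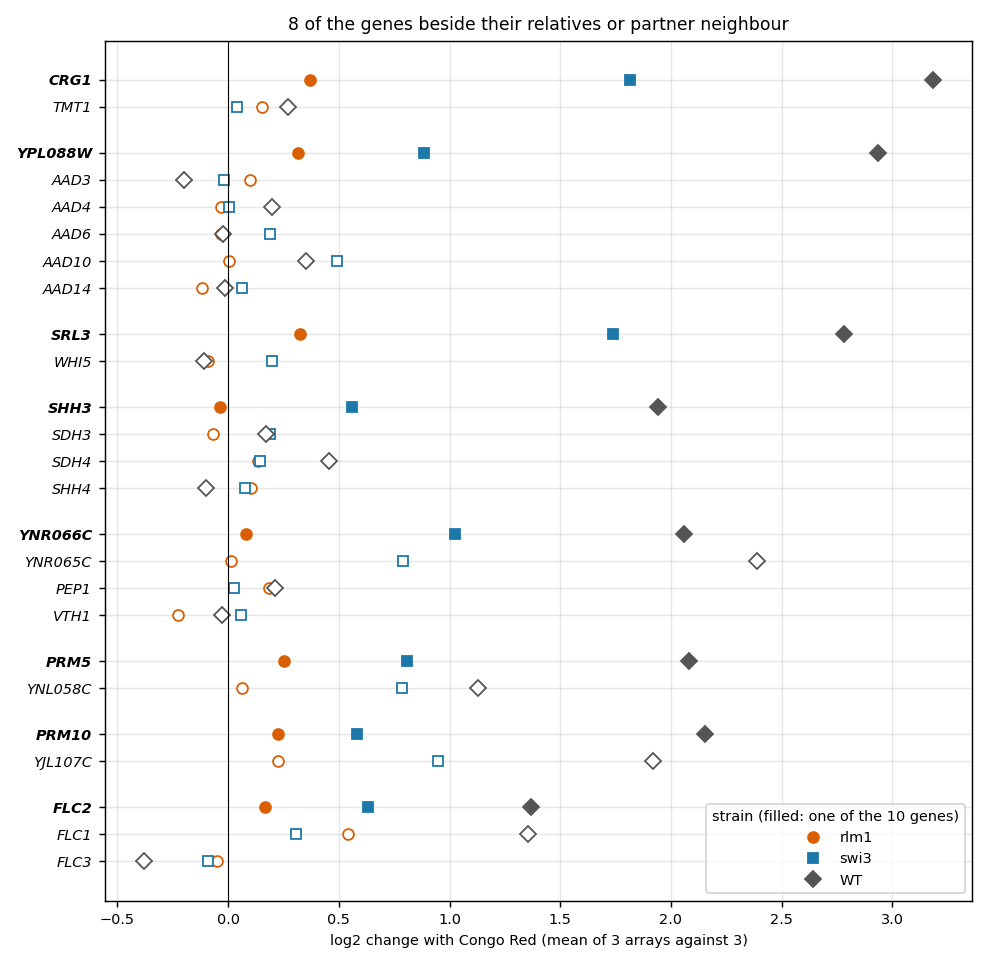
Log2 change with Congo Red (x axis) in rlm1 (circles), swi3 (squares) and the wild type (diamonds) for 8 of the genes (bold, filled) and their relatives or neighbour (open). WHI5, SDH3, SHH4, PEP1 and VTH1 stay close to 0 in all 3 strains, while FLC1, YNR065C, YJL107C and YNL058C are above 1 in the wild type.

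The genes closest in pattern were sought among genes outside the 10, by Pearson's r of log2 levels over the 18 arrays. The arrays share strain, dye and array, and r over the 16 arrays without the number 1 arrays of rlm1 is given beside it. PRM5 was closest to HAL1, a salt tolerance gene (0.991, and 0.987 over 16), SRL3 to PTP2, a MAP kinase phosphatase (0.988 and 0.987), and FLC2 to CRH1, a chitin transglycosylase (0.984 and 0.988). CRG1 was closest to YJL107C (0.980 and 0.971), PLN1 to GFA1, an enzyme of the chitin precursor route (0.980 and 0.971), and PRM10 to the chitin synthase CHS3 (0.972 and 0.963). YPL088W was closest to the kinase YPK2 (0.960 and 0.955), YNR066C to GDE1, a glycerophosphocholine phosphodiesterase (0.942 and 0.968), and SHH3 to the phosphatase MSG5 (0.937 and 0.971). Within the 10, SHH3 and YNR066C had a higher r with each other (0.967 and 0.969) than with these genes over the 18 arrays. DIA1 was closest to the calmodulin-dependent kinase CMK2 (0.944 and 0.941), the glucan synthase subunit GSC2 (0.930 and 0.928) and RCR1, a Congo Red resistance gene (0.912 and 0.918). Closest here refers to the 18 arrays. Over the 16 arrays HAL1, CRH1, GFA1 and CMK2 still ranked 1 for PRM5, FLC2, PLN1 and DIA1. YJL107C, PTP2 and GDE1 then ranked 2 for CRG1, SRL3 and YNR066C. YPK2 and CHS3 ranked 5 for YPL088W and PRM10, and MSG5 ranked 7 for SHH3. Pairs of DIA1 with another of the 10 genes had r between 0.351 and 0.758 over 16 arrays, with a median of 0.648. The 36 other pairs had r between 0.254 and 0.969, with a median of 0.851. The lowest was that of YNR066C with FLC2 (0.254), so a low r was not particular to DIA1. All these r include the wild-type arrays on which the genes were chosen, so they are descriptions.

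Pathway genes were read from lists beside the 10. Of 25 measured genes of the wall integrity list, 1 rose in rlm1 in the fit of 18 arrays, GSC2 (1.91 ± 0.22, SE, adjusted p = 0.00071), and 7 rose in swi3. In swi3 they included PIR3, a wall protein with internal repeats (3.38 ± 0.37), the kinase-like KDX1 (1.87 ± 0.31), PST1, a wall mannoprotein (1.80 ± 0.23), and the protease YPS3 (1.32 ± 0.22). KDX1 and YPS3 lost their swi3 calls in 5 and 6 of 6 fits that left out 1 array. Under the pair-blocked fit, 3 of the list rose and 1 fell in rlm1, and 17 rose and 1 fell in swi3. The median over the list was 0.07 in rlm1 and 0.41 in swi3. Of 7 measured genes linked to the calcineurin-dependent factor Crz1, 2 rose in rlm1 (5 in the pair-blocked fit) and 0 in swi3 (1 at an unadjusted p under 0.05, and 1 in the pair-blocked fit), with medians of 1.04 and 0.17. GSC2 and YPS1 are on both the wall integrity and the Crz1 list and count in each. Over all features 0.0884% rose in rlm1 and 0.159% in swi3 in the fit of 18 arrays. The pair-blocked shares were 1.40% and 5.92%. For DIA1 the differences were 1.75 in rlm1 and 0.54 in swi3, and a link of DIA1 to Crz1 was not tested. Of 10 general stress genes, 0 rose in either mutant in either fit, and 0 had an unadjusted p under 0.05 in the fit of 18 arrays.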

How the data were processed

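The deposited values are log2 probe set levels of 18 arrays. The log2 scale was read from their range, and GCRMA is named in the submitters' processing notes. The GCRMA version, the genome build and any filter by the authors are not given in the sources used here, and scanner files were not used. Of 5814 probe sets, 51 Affymetrix controls and 47 reporter probe sets were left out. Of the other 5716, 5498 had 1 symbol, 218 had none and 12 symbols were updated through assembly R64, used only for names and neighbours. The probe set with the highest mean was kept per gene, which dropped 49, and features had to reach 4 on at least 3 arrays, which removed 8 and left 5659.

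The 6 group means of all 18 arrays were modelled together using lmFit and eBayes of limma 3.58.1 (R 4.3.3). Adjustment was by Benjamini-Hochberg over the 5659 features, with calls at adjusted p under 0.05. The code was tested on simulated data. The 10 genes, their relatives and all lists were chosen with earlier results of these data known. Contrasts that hold wild-type arrays are descriptions for the 10 genes. Named besides them were RLM1, SWI3, their relatives, and the up to 4 largest changes of the wall integrity list. Genes closest in pattern were sought outside the 10, up to 3 per gene. The level of 7 was set after the values were seen.

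Same-numbered arrays of a strain deviated together from their group means (r from 0.419 to 0.909 in 9 array pairs) and were treated as pairs. Different numbers had r from -0.902 to 0.871, and the labels state no pairing, so the pairs are an assumption on which the pair-blocked fit rests. No 2 arrays of a group held identical values, with at least 95.2% of features differing. Precision is limited by having 3 arrays per group. Other normalizations, filters, array weights and left-out arrays were tried, and all columns were used.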

Additional observations from a re-analysis of the deposited data

Results flagged for a closer look

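Several genes responded to Congo Red differently in swi3 and rlm1 by the test of the difference itself in the pair-blocked limma fit. Of the 10 genes, the swi3 response was larger by 1.45 for CRG1, 1.41 for SRL3, 0.95 for YNR066C and 0.47 for FLC2, and it was smaller for DIA1 (-1.22). Of their relatives, the response of YNL058C, related to PRM5, was larger in swi3 by 0.72 (adjusted p = 0.0080), and that of PRM7 smaller (-1.01, adjusted p = 0.018). Of the wall integrity list, PIR3 (3.46), PST1 (1.72) and KDX1 (1.67) responded more in swi3, and GSC2 (-1.71) less. The pair-blocked fit called 1.29% of all features higher and 0.495% lower, and its pairs are an assumption. In the fit of all 18 arrays 0 of the 10 genes passed. Of the genes named here PIR3 alone passed in it (adjusted p = 0.041). That call was lost in 10 of 12 fits that left out 1 array (adjusted p up to 0.19) and with the 12 mutant arrays alone (0.53). Without both number 1 arrays of rlm1 the pair-blocked adjusted p was 0.083 for YNR066C and 0.077 for FLC2, and between 0.013 and 0.044 for the others.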

How the results depend on the processing

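Counts of the 10 genes called are given for each alternative that moved them. For Congo Red in rlm1 the count was 1, and it was 2 with array weights (YPL088W added, adjusted p = 0.0011; 3.25% of all features higher) and 0 on rlm1 arrays alone, a fit added after seeing the data; it was 1 in each fit that left out 1 array. For Congo Red in swi3 the count of 1 became 4 with quantile normalization (0.901% of all features higher), 4 with arrays centred on their medians (0.689%), 4 with array weights (1.34%), 7 without both number 1 arrays of rlm1 (2.24%), 0 with the mutants alone, 8 with the replicate block (5.92%) and 0 to 1 when 1 array was left out. The 1 gene then was YNR066C (adjusted p = 0.031), and on swi3 arrays alone, a fit added after seeing the data, it was SRL3 (0.0092), with YPL088W at 0.10. For the swi3 minus rlm1 response the count of 0 became 2 with quantile normalization (0.194% of all features higher and 0.106% lower), 1 after centring (0.0884% lower), 4 with array weights (0.548% and 0.247%), 3 without both number 1 arrays of rlm1 (0.141% and 0.0884%), 5 with the replicate block, 3 with the replicate block and without those arrays (added after seeing the data), and 0 to 1 when 1 array was left out. The counts for swi3 minus rlm1 without dye (7) and with Congo Red (8) stayed within 1.5 times under the alternatives run, from 6 to 9 and from 7 to 8.

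Single genes changed sign, all but SRL3 without dye with no call on either side. In rlm1, leaving out 1 array gave ranges of -0.34 to 0.94 for CRG1, -0.25 to 0.74 for SRL3, -0.19 to 0.06 for SHH3, -0.18 to 0.68 for PRM5, -0.01 to 0.55 for PRM10 and -0.18 to 0.63 for PLN1. YNR066C in rlm1 was -0.01 after quantile normalization, -0.05 with array weights, -0.03 without the number 1 arrays and -0.02 with the replicate block and without them. The response difference of PLN1 ranged from -0.08 to 0.73 when 1 array was left out. SRL3 without dye, 0.03 and not called, was called at -0.54 with array weights (adjusted p = 0.00025; 64.1% of all features lower) and -0.55 without the number 1 arrays (0.0034; 57.0%), and -0.55 to 0.32 when 1 array was left out. SHH3 with Congo Red was 0.05 after quantile normalization. The causes were not tested. The replicate block changed no call of the 10 genes but those named, and pairs lie within a strain, so swi3 minus rlm1 levels have no such fit. The planned search of promoters for motifs was not run. Levels near background limit what can be said of SHH3 and YNR066C.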
